A study of Mus musculus with 9 samples.

Results

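The genes of de novo lipogenesis, the route by which the liver makes fatty acids from carbohydrate, were examined with Srebf1 in mouse liver. The members were the non-control probes that the array design assigns to Fasn, Acly, Acaca, Acacb, Scd1, Elovl6, Thrsp, Srebf1, Mlxipl or Pnpla3. They numbered 24 probes for 10 genes, among 56605 non-control probes in all. Liver RNA was measured on 9 one-colour Agilent arrays from male C57BL/6N mice. All mice had received a hepatocyte-directed adeno-associated virus (AAV). The AAV-V group (n = 3) carried an empty vector and ate a normal diet, the AAV-GP73 group (n = 3) carried a vector for mouse GP73 and ate the same diet, and the AAV-V HFD group (n = 3) carried the empty vector and ate a high fat diet. Every sample is labelled as 12 months old, whereas the study describes the livers as taken that long after injection, and its text gives differing durations for the diet. Pooling of mice within a sample was neither stated nor denied in the sources used here, so that the p values measure the spread between these samples.

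In lipogenesis, citrate exported from mitochondria is cleaved by ATP-citrate lyase (Acly) to acetyl-CoA, acetyl-CoA carboxylases (Acaca and Acacb) make malonyl-CoA, and fatty acid synthase (Fasn) builds palmitate from both. Elovl6 elongates palmitate to stearate and Scd1 introduces a double bond. The programme is driven by SREBP-1c, a product of Srebf1 that responds to insulin, and by ChREBP, the product of Mlxipl, which responds to glucose. Thrsp (Spot 14) is a small protein that promotes lipogenesis, and Pnpla3 is a lipid droplet protein whose gene is a target of SREBP-1c.

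The arrays differed in general brightness, which bears on every value below. The median processed signal of the 2666 probes well above background on all 9 arrays was 35.8 ± 2.80 (SD, n = 3) on the AAV-V arrays, 113 ± 14.2 on the AAV-GP73 arrays and 105 ± 25.2 on the AAV-V HFD arrays. The mean log2 signal of the 350 spike-in spots, for RNA added in known amounts, was 7.98 ± 0.25, 7.85 ± 0.04 and 8.10 ± 0.16. Between 6.67% and 14.9% of probes were well above background on an array, a flag of the scanner software that is called detection here. For the tests, the arrays were aligned on the 75th percentile of those 2666 probes. This gave the scaled log2 level, on which probes detected on no array had a median, averaged over 3 arrays, of 1.78 for AAV-V, against 0.16 for AAV-GP73 and 0.36 with the high fat diet. A probe without signal would therefore lie lower in both other groups, and where a group had no detected array the difference is given as a lower bound. An adjusted p printed beside a bound is that of the fitted difference, undetected signals included. The bound itself was not tested. The same slide held AAV-V and AAV-GP73, each in a column of its own, and a different slide held AAV-V HFD. Diet therefore cannot be told apart from slide, nor the GP73 vector from column. AAV-GP73 and AAV-V HFD differed in both slide and column. Golm1, which encodes GP73, had 1 probe, detected on 0 of 9 arrays, so that the overexpression could not be checked with it, and whether the vector carries the probe's sequence was not given. Of 7 hepatocyte markers, 7 were detected on all arrays of AAV-V and of AAV-GP73, and 6 on all AAV-V HFD arrays. Summed hepatocyte markers ranged from 16624 to 25908 on the AAV-V arrays, from 16293 to 22911 on the AAV-GP73 arrays and from 10139 to 17330 on the AAV-V HFD arrays. Of 7 adipocyte markers, 1 was detected on at least 1 AAV-V array, 2 on AAV-GP73 arrays and 3 on AAV-V HFD arrays, while Adipoq, Lep, Plin1 and Retn were detected on no array. Their summed signal ranged from 31.1 to 48.7, from 22.2 to 38.5 and from 24.3 to 45.0 in the same order. Summed erythroid markers ranged from 370 to 910 on the AAV-V arrays, from 3303 to 16578 on the AAV-GP73 arrays and from 610 to 1072 on the AAV-V HFD arrays, and their part in the results was not tested.

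Of the 24 probes, 10 probes of 8 genes were detected on all arrays of at least 1 group and were tested, among 6591 such probes in all. The probes of Acaca (7) and Pnpla3 (2) were not among them. Of the member probes not tested, 12 were detected on no array and 2 were detected on some arrays only. The RefSeq table of promoters (assembly GRCm38.p6) held 9 of the 10 genes. The 250 bases before the start site of Fasn, Thrsp and Acly are shown because these genes had the largest falls described below. Capitals mark matches on either strand to the CCAAT box (CCAAT) and the GC box (GGGCGG).
Fasn, chr11:120824548-120824797, minus strand: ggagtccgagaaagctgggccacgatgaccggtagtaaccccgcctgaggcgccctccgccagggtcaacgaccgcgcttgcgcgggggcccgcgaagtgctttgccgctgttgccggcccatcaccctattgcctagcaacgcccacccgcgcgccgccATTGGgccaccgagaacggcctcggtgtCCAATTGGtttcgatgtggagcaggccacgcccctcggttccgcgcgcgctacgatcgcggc
Thrsp, chr7:97417551-97417800, minus strand: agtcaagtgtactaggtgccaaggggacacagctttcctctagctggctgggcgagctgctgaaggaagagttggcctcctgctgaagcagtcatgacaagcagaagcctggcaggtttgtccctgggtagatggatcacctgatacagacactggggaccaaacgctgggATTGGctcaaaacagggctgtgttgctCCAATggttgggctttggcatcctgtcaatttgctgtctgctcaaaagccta
Acly, chr11:100528001-100528250, minus strand: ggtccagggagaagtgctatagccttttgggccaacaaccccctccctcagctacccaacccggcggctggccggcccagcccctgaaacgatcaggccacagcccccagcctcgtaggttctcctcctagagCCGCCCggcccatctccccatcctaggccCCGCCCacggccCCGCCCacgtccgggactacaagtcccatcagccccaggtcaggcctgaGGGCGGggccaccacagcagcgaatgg
Fasn held 3 matches to the CCAAT box, a pair of which overlap on opposite strands, and Thrsp held 2. Acly held 4 matches to the GC box. In windows of the same length, the CCAAT box was found in 33.8% and the GC box in 32.7% of all 32851 promoters. The sterol regulatory element TCACNCCAC, where N is any base, and the E-box CACGTG were not found in these 3 windows. Among the members each was found for 1 gene, Mlxipl, against 1.05% and 6.02% of all promoters. A match describes the letters only.

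Fasn, Thrsp and the upstream probe of Acly were far lower in AAV-GP73 than in AAV-V livers. These are whole livers, in which fewer cells of a type and less RNA per cell cannot be told apart. In that comparison 7 of the 10 member probes were called lower and 0 higher, a call being an adjusted p under 0.05 (limma) and a fold change of at least 2. Among all 6591 probes tested, 17.9% were called lower and 33.9% higher. Acly probe 2 was tested only because AAV-V, where it is high, had it detected, and Srebf1 only because AAV-V HFD did, so that these counts describe the probes tested and are no support for a direction. The median log2 fold change was -2.42 over the member probes and 0.64 over all probes tested. Other scalings moved this background, to 6.34% lower and 66.4% higher with the 75th percentile of all probes and to 1.41% lower and 77.6% higher with all spike-in spots. In total 6 ways of treating the scale were run, of which no scaling, and spike-ins restricted to the 249 spots detected on all arrays, were added after the data were seen. Called lower under all 6 were 4 member probes, for Fasn, Acly (probe 2) and Thrsp (both), where 1.41% of all probes were, and 0 members were called higher under all 6, where 32.9% were. The rule of all 6 was also chosen after the data were seen. Each of the groups AAV-GP73 and AAV-V HFD was compared with the same AAV-V arrays, so that these comparisons are not independent.

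**Figure D1:**
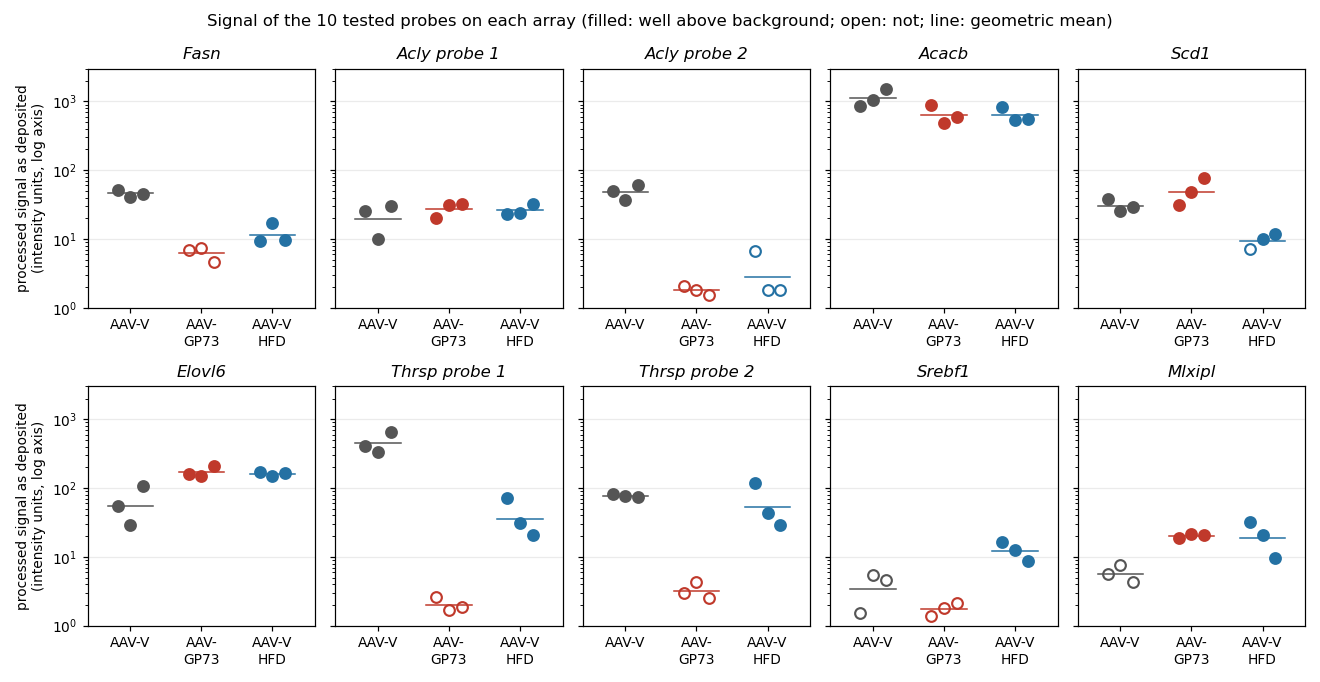
Processed signal as deposited (log axis, intensity units) of the 10 tested member probes on each of the 9 arrays, 3 per group, with filled points well above background, open points not, and a line at the geometric mean. Fasn, Acly probe 2 and both Thrsp probes lie lower on every AAV-GP73 array than on any AAV-V array, at signals of 7.42 or less.

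Fasn, the enzyme that builds palmitate, had 1 probe (mm9 chr11:120668460-120668519, minus strand). Its processed signal was 51.5, 41.3 and 45.3 on the AAV-V arrays, 7.01, 7.42 and 4.70 on the AAV-GP73 arrays and 9.45, 16.9 and 9.63 on the AAV-V HFD arrays. The groups did not overlap on the deposited scale, and no AAV-GP73 array reached detection. On the scaled log2 level Fasn stood at 6.52 ± 0.17 on the AAV-V arrays, 2.10 ± 0.55 on the AAV-GP73 arrays and 3.07 ± 0.53 on the AAV-V HFD arrays (SD, n = 3). Fasn in AAV-GP73 lay at least 19.3-fold below AAV-V (adjusted p = 1.22e-05, limma), or at least 6.05-fold with spike-in scaling. With normexp, another background correction (offset 50), the log2 fold change was -1.59 (adjusted p = 5.29e-05, limma). Fasn fell 10.9-fold in AAV-V HFD (log2 fold change -3.44, SE 0.35, adjusted p = 0.000177, limma), or 3.97-fold with no scaling, and its log2 fold change was -1.63 with normexp. Between AAV-GP73 and AAV-V HFD the bound was 1.77-fold and the difference was not called (adjusted p = 0.184, limma).

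Thrsp had 2 probes on the minus strand of chromosome 7 (mm9), probe 1 at chr7:104565562-104565621 and, downstream of it, probe 2 at chr7:104561649-104561708. The first 30 bases of each are shown because their values parted in the high fat diet livers.
Thrsp probe 1: gacccggaaagcacaggaggtgacgcggaa
Thrsp probe 2: aaagcagggatgctgtatctacctcacacg
Probe 1 gave processed signals of 406, 337 and 643 on the AAV-V arrays, 2.57, 1.68 and 1.88 on the AAV-GP73 arrays and 70.7, 31.5 and 21.1 on the AAV-V HFD arrays. Probe 2 gave 81.7, 76.1 and 74.4 on the AAV-V arrays, 2.98, 4.27 and 2.56 on the AAV-GP73 arrays and 120.0, 43.8 and 28.7 on the AAV-V HFD arrays. Both probes were detected on every AAV-V and AAV-V HFD array and on no AAV-GP73 array. Thrsp in AAV-GP73 lay below AAV-V by at least 198-fold with probe 1 (adjusted p = 4.76e-08, limma) and at least 34.4-fold with probe 2 (adjusted p = 2.91e-06, limma). With spike-in scaling these bounds were 62.0-fold and 10.8-fold, and with normexp the log2 fold changes were -4.04 and -2.15. Against AAV-V HFD, the AAV-GP73 livers were at least 5.85-fold lower by probe 1 (adjusted p = 0.000103, limma) and at least 8.64-fold lower by probe 2 (adjusted p = 0.000277, limma). These calls against AAV-V HFD were lost with normexp (log2 fold changes -0.55 and -0.86, adjusted p = 0.59 and 0.112, limma), and with a test of each probe on its own spread after Benjamini-Hochberg adjustment.

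In AAV-V HFD livers, Thrsp fell 33.7-fold by probe 1 (log2 fold change -5.08, SE 0.36, adjusted p = 4.15e-05, limma) and 3.98-fold by probe 2 (log2 fold change -1.99, SE 0.39, adjusted p = 0.00194, limma). The deposited signals of probe 2 overlapped between these groups, and its call was lost with spike-in scaling (log2 fold change -0.66, adjusted p = 0.188, limma) and with no scaling (-0.54, adjusted p = 0.29). With normexp the log2 fold changes were -3.49 and -1.28. The ratio of probe 1 to probe 2 on the same array, computed because the probes had been seen to part and which no shift between arrays can alter, was 4.96, 4.43 and 8.64 in AAV-V and 0.589, 0.720 and 0.736 in AAV-V HFD. The ratios of these groups did not overlap, with a difference of 3.08 on the log2 scale (two-sided exact permutation p = 0.1, the smallest that 3 against 3 arrays can give). Which of the probes stands closer to the gene's transcript level cannot be read from these arrays.

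Acly, which supplies acetyl-CoA, also had probes that disagreed. Probe 1 lay at mm9 chr11:100337674-100337733 and probe 2, upstream of it on the minus strand, at chr11:100365518-100365577, and the array design assigns them to different transcript records. The first 30 bases of each are given for comparison.
Acly probe 1: gccacctcagtctcttctctgtgttatcta
Acly probe 2: tctgagtcccgagctgatgaagtggcacct
Probe 2 gave processed signals of 50.6, 36.4 and 61.5 on the AAV-V arrays, 2.06, 1.84 and 1.56 on the AAV-GP73 arrays and 6.68, 1.80 and 1.79 on the AAV-V HFD arrays, and it was detected in AAV-V only. By probe 2, Acly in AAV-GP73 was lower than in AAV-V by at least 21.5-fold (adjusted p = 3.06e-06, limma), and in AAV-V HFD by at least 18.4-fold (adjusted p = 4.15e-05, limma). With spike-in scaling the bounds were 6.74-fold and 7.27-fold, and with normexp the log2 fold changes were -1.74 and -1.86. The probe entered the test only through AAV-V, the group where it is high, so the selection favours these differences.

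Acly probe 1 gave 25.2, 9.82 and 30.6 on the AAV-V arrays, 20.1, 31.5 and 31.7 on the AAV-GP73 arrays and 23.3, 24.0 and 32.4 on the AAV-V HFD arrays, with all 9 arrays detected and the 3 groups overlapping. Its fall in AAV-GP73 (log2 fold change -1.07, SE 0.42, adjusted p = 0.046, limma) turned to 0.61 with spike-in scaling and 0.47 with no scaling. The call was also lost with the percentile of all probes (-0.07, adjusted p = 0.873), with quantile normalization (0.0564), with normexp (log2 fold change -0.86) and on leaving out AAV-V replicate 1 (adjusted p = 0.126), AAV-V replicate 3 (0.161) or any AAV-GP73 array (0.0587 to 0.136, limma). In AAV-V HFD probe 1 differed by -1.03 and was not called (SE 0.42, adjusted p = 0.0569, limma), but passed without AAV-V replicate 2 (adjusted p = 0.0102) or AAV-V HFD replicate 3 (0.0198), with no filter on dim probes (0.0325), with detection required on all 9 arrays (0.034) and with a trended, robust variance (0.0487, limma). Acly was thus far lower by probe 2 in both comparisons, and no stable difference was measured by probe 1.

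The acetyl-CoA carboxylases make malonyl-CoA, the building block of fatty acids and an inhibitor of fatty acid entry into mitochondria. Acacb, the form at the mitochondrion, had a bright probe (mm9 chr5:114667674-114667733) with signals of 869, 1052 and 1502 on the AAV-V arrays, 884, 483 and 601 on the AAV-GP73 arrays and 827, 535 and 555 on the AAV-V HFD arrays. On the deposited scale AAV-GP73 replicate 1 overlapped with AAV-V, while the AAV-V HFD arrays lay below all AAV-V arrays. After scaling Acacb fell 5.07-fold in AAV-GP73 (log2 fold change -2.34, SE 0.33, adjusted p = 0.000185, limma) and 4.86-fold in AAV-V HFD (-2.28, SE 0.33, adjusted p = 0.000471). The direction held under every scaling, but the calls were lost with spike-ins (-0.67, adjusted p = 0.0711, and -0.94, adjusted p = 0.0187, where the fold change was under 2) and with no scaling (-0.81, adjusted p = 0.0596, and -0.83, adjusted p = 0.0579, limma).

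Another Acacb probe (mm9 chr5:114700702-114700761) was detected on 2 AAV-V arrays and the remaining Acacb probe on none, and neither was tested. The former gave 7.43, 19.0 and 14.1 on the AAV-V arrays, no more than 3.42 on the AAV-GP73 arrays and 7.79, 4.50 and 1.68 on the AAV-V HFD arrays. Acaca, the cytosolic form, had 7 probes, of which 1 (mm9 chr11:84214359-84214418) was detected on 2 AAV-V arrays and the others on none. That probe gave 11.6, 5.04 and 9.52 on the AAV-V arrays, 5.44, 4.39 and 2.90 on the AAV-GP73 arrays and 2.09, 3.18 and 1.42 on the AAV-V HFD arrays. On the deposited scale its AAV-GP73 and AAV-V signals overlapped, whereas all AAV-V HFD signals lay below all AAV-V signals. It was not tested.

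The enzymes that finish the fatty acid did not move together. Scd1, the desaturase that makes oleate, was measured by the probe at mm9 chr19:44469387-44469446, with signals of 38.3, 25.5 and 28.8 on the AAV-V arrays, 31.1, 48.3 and 75.8 on the AAV-GP73 arrays and 7.04, 10.1 and 11.6 on the AAV-V HFD arrays. The high fat diet arrays lay below all others, and 2 of these 3 were detected. Scd1 fell 8.87-fold in AAV-V HFD against AAV-V (log2 fold change -3.15, SE 0.39, adjusted p = 0.000272, limma), and 3.24-fold with no scaling, with a log2 fold change of -1.44 under normexp. In AAV-GP73 it was 4.87-fold higher than in AAV-V HFD (log2 fold change 2.28, SE 0.39, adjusted p = 0.0105, limma), a call that was lost without AAV-GP73 replicate 2 (adjusted p = 0.0556) or replicate 3 (0.0635), with normexp (0.112), with the authors' log2 table (0.0525, limma) and with a test of each probe on its own spread after Benjamini-Hochberg adjustment. Against AAV-V, Scd1 in AAV-GP73 differed by -0.86 (SE 0.39, adjusted p = 0.0704, limma), which turned to 0.13 with the percentile of all probes and 0.81 with spike-ins. The other Scd1 probe was detected on no array.

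Elovl6 (mm9 chr3:129337756-129337815), the elongase, gave 54.7, 28.9 and 107 on the AAV-V arrays, 158, 152 and 211 on the AAV-GP73 arrays and 171, 150.4 and 163 on the AAV-V HFD arrays. On the deposited scale every array of both other groups lay above every AAV-V array. After scaling the differences from AAV-V were 0.10 in AAV-GP73 (SE 0.39, adjusted p = 0.838, limma) and 0.09 in AAV-V HFD (SE 0.39, adjusted p = 0.854). With the percentile of all probes Elovl6 was called higher in both (1.09, adjusted p = 0.0216, and 1.05, adjusted p = 0.0316, limma). It was also called higher in both with spike-ins (1.77, adjusted p = 0.000692, and 1.43, adjusted p = 0.00407, limma) and with no scaling (1.63, adjusted p = 0.00185, and 1.54, adjusted p = 0.00333, limma). The difference lay above 0 under all 6 scalings in both comparisons, with its size and its call moving between them, and below 0 with normexp and the authors' table.

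**Figure D2:**
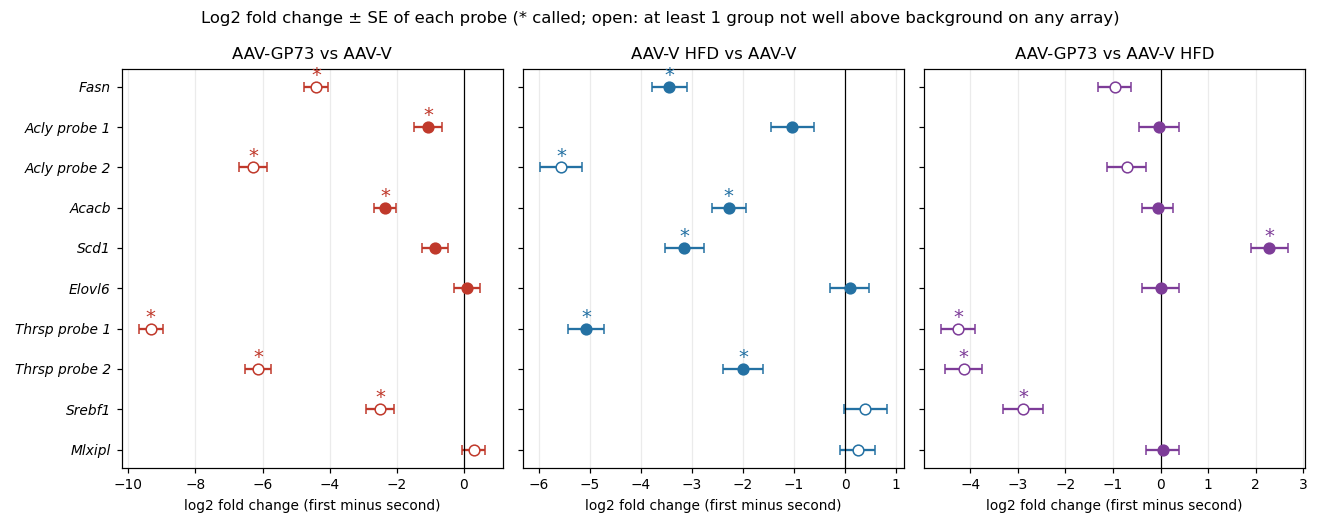
Log2 fold change with its standard error from limma (x axis) of the 10 tested member probes in the 3 comparisons, each from 3 arrays per group; asterisks mark calls, and open points mark comparisons in which at least 1 group had no detected array. The AAV-GP73 and AAV-V HFD comparisons share the AAV-V arrays, and Scd1 is the member called higher in AAV-GP73 than in AAV-V HFD, at 2.28.

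The transcription factors were near the limit of detection. Srebf1, the source of SREBP-1c, had 1 probe (mm9 chr11:60013214-60013273, minus strand), with signals of 1.53, 5.40 and 4.67 on the AAV-V arrays, 1.36, 1.80 and 2.16 on the AAV-GP73 arrays and 16.5, 12.7 and 8.68 on the AAV-V HFD arrays. It was detected on all AAV-V HFD arrays and on no other, and on the deposited scale the AAV-V HFD arrays lay above all the rest. Against AAV-GP73, Srebf1 was at least 1.98-fold higher in AAV-V HFD, a bound under the fold change of 2 that a call asks for. The fitted difference of AAV-GP73 from AAV-V HFD, -2.89 on the log2 scale, was called (adjusted p = 0.00512, limma). The probe entered this test only through AAV-V HFD, where it is high. The call was lost with quantile normalization (adjusted p = 0.0915), the authors' log2 table (0.11) and normexp (0.923, limma). Against AAV-V the scaled difference was 0.40 (SE 0.42, adjusted p = 0.437, limma) and gave no bound above 1, whereas with no scaling Srebf1 was at least 1.68-fold higher in AAV-V HFD (adjusted p = 0.00139, limma), and at least 1.19-fold with the percentile of all probes (adjusted p = 0.0137). Between AAV-GP73 and AAV-V the probe is 1 of the 7 called lower (adjusted p = 0.000443, limma), but as neither group had a detected array, no difference in Srebf1 was measured there.

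Mlxipl, which encodes ChREBP, was measured by the probe at mm9 chr5:135613705-135613764, with signals of 5.63, 7.67 and 4.28 on the AAV-V arrays, 18.6, 21.2 and 20.8 on the AAV-GP73 arrays and 32.2, 20.5 and 9.63 on the AAV-V HFD arrays. It was detected on every array but those of AAV-V, above which all lay on the deposited scale. After scaling the differences from AAV-V were 0.29 (SE 0.35, adjusted p = 0.479) and 0.25 (SE 0.35, adjusted p = 0.563, limma), with no bound above 1. With no scaling Mlxipl was higher in AAV-GP73 by at least 2.66-fold (adjusted p = 0.000734) and in AAV-V HFD by at least 2.45-fold (adjusted p = 0.00157, limma), and with the percentile of all probes by at least 1.83-fold and 1.73-fold. The other 2 Mlxipl probes were detected on no array. Both probes of Pnpla3 were detected on none either, with signals between 1.42 and 2.28.

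**Figure D3:**
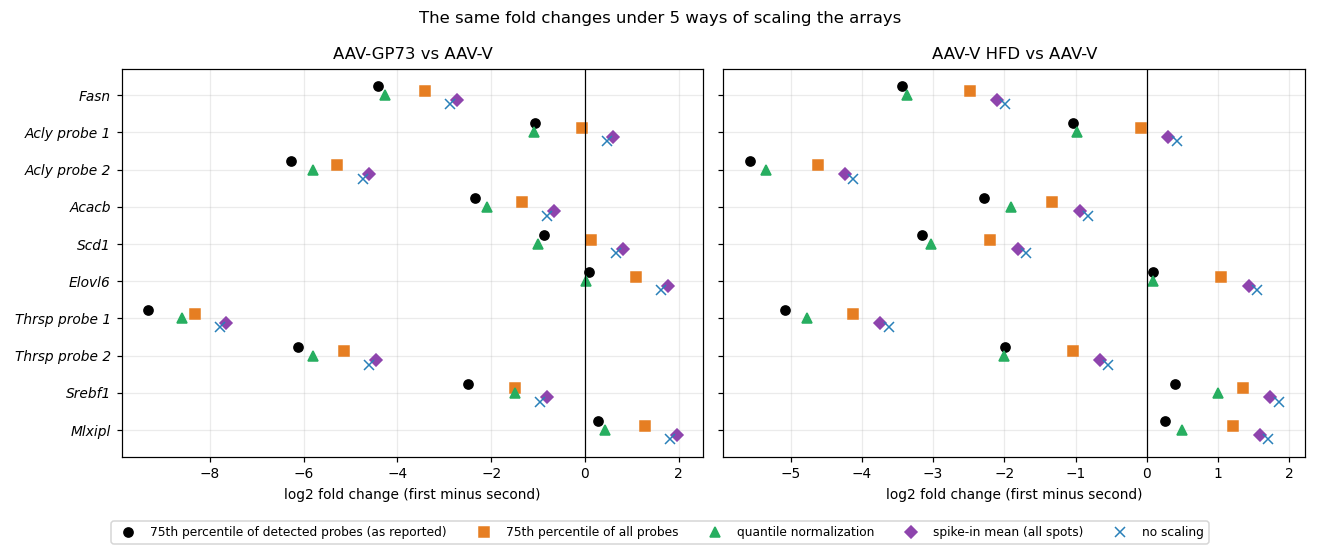
Log2 fold change against AAV-V (x axis) of each tested member probe under 5 of the 6 ways of scaling the 9 arrays, shown by marker (spike-ins as all spots). Fasn, Acly probe 2 and Thrsp probe 1 stay below 0 by 1.99 or more under all 5 in both comparisons, whereas Acly probe 1 lies on either side of 0.

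In AAV-V HFD against AAV-V, 6 of the 10 member probes were called lower and 0 higher, where 16.9% of all probes tested were called lower and 25% higher. The members called were Fasn, Acly probe 2, Acacb, Scd1 and both Thrsp probes. Acly probe 2 was tested only through AAV-V, where it is high, so that the counts of this comparison, also those over the 6 scalings, are no support for a direction. The median log2 fold change was -2.14 over the member probes and 0.41 over all. Fasn, Acly probe 2, Scd1 and Thrsp probe 1 were called lower under all 6 scalings, 4 member probes where 0.91% of all probes were, and 0 were called higher under all 6, where 24.7% were. With the percentile of all probes the background became 2.96% lower and 58.3% higher. Between AAV-GP73 and AAV-V HFD, 3 member probes were called lower (both of Thrsp, and Srebf1), where 0.592% of all probes were, and 1 was called higher (Scd1), where 2.08% were. Srebf1 was tested only through AAV-V HFD, where it is high, so that this count is no support for a direction. Under all 6 scalings the calls of both Thrsp probes (0.091% of all probes lower) and of Scd1 (0.607% higher) held.

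The other genes of the pathway were counted by their brightest probe. Of the 8 tested genes that control SREBP-1c and ChREBP, 5 rose and 1 fell in AAV-GP73, and 3 rose and 1 fell in AAV-V HFD. Of the 5761 genes tested, those called higher made up 33.2% in the first comparison and 24.8% in the second, and those called lower 19.4% and 18.2%. Some of the list genes that rose in AAV-GP73 had no detected AAV-V array, and not all of these had a bound above 1. Some entered the test only through AAV-GP73, where they are high, so the counts of this list are no support for a direction. The median log2 fold change of the list in AAV-GP73 was 1.27, against 0.60 over all genes. With the percentile of all probes 7 of these 8 rose and 0 fell, where 66.4% of all probes tested were called higher and 6.34% lower. Rxra, a partner of the liver X receptors that activate Srebf1, rose by 1.62 (SE 0.27, adjusted p = 0.000411, limma). It was called higher under all 6 scalings, as were 32.9% of all probes tested. The other scalings moved the median log2 fold change of all probes upward, so that they are a weak check of a rise. Nr1h2, which encodes liver X receptor beta, fell by 1.38 on the log2 scale (SE 0.31, adjusted p = 0.00274, limma), but its difference was 0.30 with spike-ins and 0.16 with no scaling.

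Of the 4 tested genes that supply acetyl-CoA, NADPH and glycolytic products, 1 rose and 2 fell in AAV-GP73, and the median of -0.64 turned to 0.35 with the percentile of all probes. Slc25a1, the citrate carrier that feeds Acly, fell by 1.20 on the log2 scale (SE 0.33, adjusted p = 0.00818, limma), with a difference of 0.47 under spike-in scaling. In AAV-V HFD 1 of these 4 rose and 0 fell. Of 12 tested genes for other steps of fatty acid synthesis, elongation and desaturation, 5 rose and 3 fell in AAV-GP73, while in AAV-V HFD 1 rose and 3 fell, with medians of 0.84 and 0.19. Acsl5, an acyl-CoA synthetase, was lower by 1.54 in AAV-GP73 (log2 fold change -1.54, SE 0.33, adjusted p = 0.00182, limma) and Hsd17b12, an enzyme of fatty acid elongation, by 1.23 (-1.23, SE 0.38, adjusted p = 0.0149), and both turned positive with spike-ins (0.13 and 0.45).

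Genes induced in fasting were counted beside them, because lipogenesis is low in the fasted liver. Of 6 tested, 5 rose and 0 fell in AAV-GP73, and 3 rose and 0 fell in AAV-V HFD, with medians of 2.10 and 0.94. Over all genes tested 33.2% and 24.8% were called higher, with medians of 0.60 and 0.37. Some of the 6 fasting genes were tested only because AAV-GP73, where they are high, had them detected. Some of those counted as rising had no detected AAV-V array, so the counts are no support for a direction. Pck1, of gluconeogenesis, rose by 3.59 on the log2 scale in AAV-GP73 (SE 0.40, adjusted p = 7.85e-05, limma) and by 2.39 in AAV-V HFD (adjusted p = 0.000951, limma). Both rises of Pck1 were called under all 6 scalings, where 32.9% and 24.7% of all probes tested were called higher. These scalings are a weak check of a rise, since the others moved the median log2 fold change of all probes upward.

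**Figure D4:**
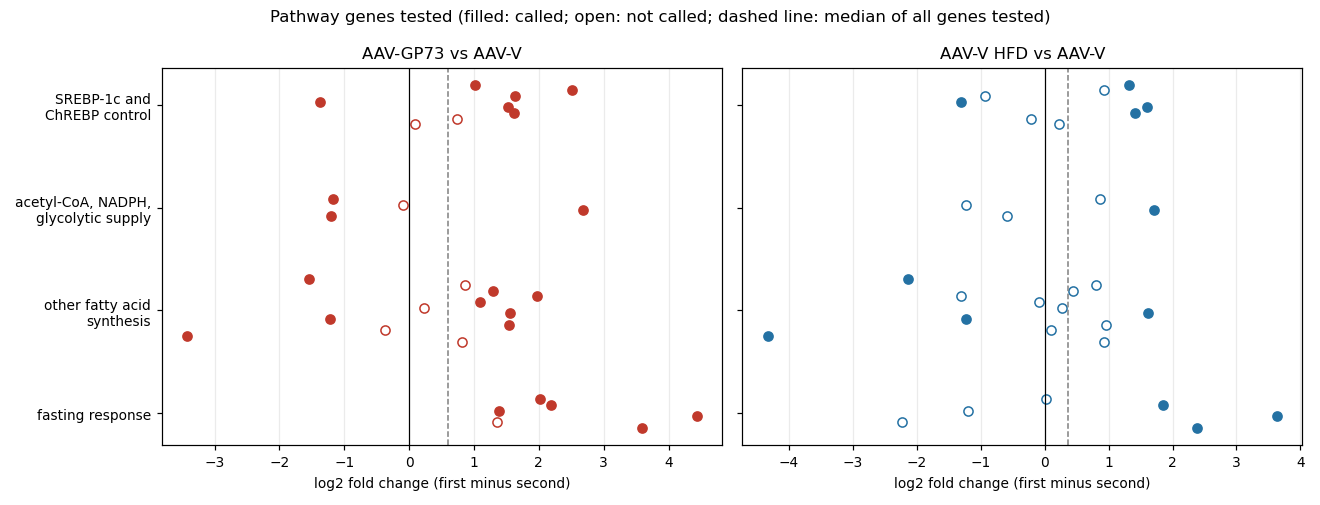
Log2 fold change against AAV-V (x axis) of the tested genes of 4 pathway lists, 1 point per gene, filled where called, with a dashed line at the median of all genes tested (0.60 in AAV-GP73, 0.37 in AAV-V HFD). Of the fasting genes in AAV-GP73, 5 of 6 are called higher, where 33.2% of all genes tested are. Some of the 6 were tested only through AAV-GP73, where they are high.

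Over the 9 arrays, the profiles most like that of Fasn by Pearson's r of the scaled log2 level were those of Gm9802 (r = 0.99), Tcp11l2 (0.99) and Sumo3 (0.98). For Thrsp probe 1 they were Vsig10 (0.99), a probe named only by its position on chromosome 1 (0.99), and Snora81 (0.98). For Srebf1 they were Dbp (0.92), Por (0.89) and Hes6 (0.87). Points of a group share their scale and detection, so that these values describe likeness over 9 arrays only.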

How the data were processed

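Total liver RNA was labelled with Cy3 and hybridised to 9 one-colour arrays, grouped by their labels. Deposited by the authors were intensity values, the Feature Extraction output (12.0.3.1 per the file headers, 10.7 in the submitters' notes), with a fitted background surface subtracted within each array and no scaling between arrays. The log2 table deposited by the authors has column medians of 0.799 to 0.801 and the same maximum in all 9 columns; its normalization was not given in the sources used here, and it served as an alternative. Coordinates of probes are those of mm9 in the file headers. Each array holds 62976 spots, 59305 of them non-control, with 98 to 151 flagged as outliers and dropped, and 0 saturated. The number of arrays limits the precision.

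In R 4.3.3 with limma 3.58.1, arrays were aligned, on the log2 scale of the processed signal, at the 75th percentile of 2666 probes with detection on every array; the percentile over all probes falls where there is no signal. Every probe was kept by itself. Probes detected throughout at least 1 group, 6591 in number, were fitted with lmFit and eBayes over all 3 groups, with Benjamini-Hochberg adjustment over all of them, and called at an adjusted p under 0.05 and a fold change of at least 2. For a lower bound, an array of the undetected group took the lowest detected signal on it, or the probe's own if that was higher. The steps were tested on simulated data. Genes named from the pathway lists were up to 4 per list with the largest change in AAV-GP73 against AAV-V among those called, detected on all arrays of both groups and not overlapping. The 3 most alike genes were named for Fasn, Thrsp and Srebf1, and Golm1 as the overexpressed gene. A gene that this rule names is not reported here. The members, lists and tests were chosen with earlier results of these data known. Residuals of equal replicate numbers in different groups correlated at -0.11 to 0.17, 2 of 9 being over 0.1, and samples were not paired. Alternatives were other scalings (the planned spike-in scaling on all 350 spots; its restriction to 249 detected spots, and no scaling, were chosen after seeing the data), normexp with an offset of 50, the authors' log2 table, other filters, the brightest probe, the methods' t-test, other variance models, a replicate block and leaving out each array. Figures were drawn with matplotlib.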

Additional observations from a re-analysis of the deposited data

How the results depend on the processing

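The scale between arrays and the background correction both moved the member values. The median log2 fold change of all probes in AAV-GP73 against AAV-V shifted by 0.99 with the 75th percentile of all probes, 1.67 with all spike-in spots, 1.68 with detected spike-in spots, 0.15 with quantile normalization 1.54 with no scaling and -1.21 with normexp. The 249 detected spike-in spots and no scaling were chosen after seeing the data. The 2 spike-in versions gave member values that differed by at most 0.0116 on the log2 scale.

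The member probes called numbered 7 in AAV-GP73 and 6 for AAV-V HFD, each against AAV-V, and 4 between AAV-GP73 and AAV-V HFD. With detection required on all 9 arrays, which leaves 3 member probes, they numbered 2, 2 and 0. Between AAV-GP73 and AAV-V HFD they numbered 0 with normexp, 2 with the authors' log2 table and 1 with the methods' t-test after Benjamini-Hochberg adjustment; the cause was not tested. Under that adjusted t-test both Thrsp probes (adjusted p = 0.0847 and 0.11) and Scd1 (0.212) lost their calls in this comparison. Leaving out each array gave 6 to 7, 6 to 7 and 3 to 4, the last set by Scd1 without AAV-GP73 replicate 2 or 3. The replicate block gave 7, 6 and 4 and changed no call of a member probe.

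Of 603 values of single member probes under an alternative, 45 had the opposite sign to the reported value; the cause was not tested. For AAV-GP73 against AAV-V, Acly probe 1 was 0.61 and Scd1 0.81 with all spike-in spots, 0.62 and 0.82 with detected ones, and 0.47 and 0.67 with no scaling. Scd1 was also 0.13 with the percentile of all probes, Elovl6 -0.11 and Mlxipl -0.67 with normexp, and Elovl6 -0.085 with the authors' table and between -0.32 and 0.51 leaving out an array (below 0 without AAV-V replicate 2). For AAV-V HFD against AAV-V, Acly probe 1 was 0.30 with either set of spike-ins and 0.42 with no scaling. With normexp Elovl6 was -0.14, Srebf1 -0.85 and Mlxipl -0.76, and with the authors' table Elovl6 was -0.19. Leaving out an array gave -0.17 to 0.79 for Srebf1 (below 0 without AAV-V replicate 1), -0.32 to 0.51 for Elovl6 (AAV-V replicate 2, AAV-V HFD replicate 3) and -0.019 to 0.52 for Mlxipl (AAV-V replicate 3). Between AAV-GP73 and AAV-V HFD, Acly probe 1 was 0.0079 with the percentile of all probes, 0.30 and 0.32 with the spike-in versions, 0.052 with no scaling and 0.10 with normexp, and -0.27 to 0.33 leaving out an array (above 0 without AAV-GP73 replicate 1 or AAV-V HFD replicate 3). Acacb was 0.27 and 0.29 with the spike-in versions and 0.022 with no scaling, and -0.36 to 0.090 leaving out an array (above 0 without AAV-GP73 replicate 2 or 3, or AAV-V HFD replicate 3). Fasn was 0.039 and Acly probe 2 was 0.12 with normexp. Mlxipl was -0.051 with quantile normalization, -0.047 with the authors' table, and -0.22 to 0.29 leaving out an array (below 0 without AAV-GP73 replicate 2 or AAV-V HFD replicate 3). Elovl6 was -0.067 with quantile normalization and -0.11 to 0.23 leaving out an array (below 0 without AAV-GP73 replicate 3 or AAV-V HFD replicate 1 or 2). Of these 45, Acly probe 1 in AAV-GP73 against AAV-V was the one probe called in the reported fit.

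Over all probes, the calls in AAV-GP73 against AAV-V numbered 3416, against 5209 with all spike-in spots, 5215 with detected ones, 5150 with no scaling, 893 with normexp and 47084 of 56605 with no filter. For AAV-V HFD against AAV-V they numbered 2768, against 4521, 4512, 4718, 962 and 45127 in the same order, and 1695 with the adjusted t-test. With no filter, 44726 and 43386 of these were lower. Between AAV-GP73 and AAV-V HFD they numbered 176, against 367 and 378 with spike-ins, 48 with quantile normalization, 49 with normexp, 27 with the authors' table, 77 with no filter, 389 with the unadjusted and 13 with the adjusted t-test, and 38 to 151 leaving out an array other than AAV-V HFD replicate 2. With detection required on all 9 arrays, the calls numbered 1250, 1087 and 71 of 2666 in the 3 comparisons. Slide could not be fitted as a block, since AAV-V and AAV-GP73 share a slide and AAV-V HFD has its own. Signal over background limits Acaca, Pnpla3, Srebf1 and Mlxipl.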
